A study of Homo sapiens with 26 samples.

Results

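Gene expression was compared between the control libraries of 2 established human lymphoma lines, OCI-Ly7 and SUDHL4 (SU-DHL-4), by stranded, paired-end mRNA sequencing. The lines belong to a series in which POU2F2 or POU2AF1 was repressed by CRISPR interference, and the control files are all files labelled with a non-targeting guide. They are 8 of the 26 files, 6 of OCI-Ly7 and 2 of SUDHL4. After files of the same library were merged they came to 5 of 22 libraries, 4 of OCI-Ly7 and 1 of SUDHL4. Both lines carried a lentiviral fusion of catalytically dead Cas9, blue fluorescent protein and a KRAB repressor domain, driven by the SFFV promoter, so neither control is the unmodified line. OCI-Ly7 was grown in IMDM with 20% serum and SUDHL4 in RPMI-1640 with 10% serum, both with glutamine and antibiotics, so the line, its medium and its serum cannot be told apart. The batch 1 OCI-Ly7 library is made of files 1 and 2, whose sum was deposited again as file 3, labelled 48 h. OCI-Ly7 replicates 7, 8 and 9 belong to batch 2 and carry the series marks 0, 2 and 3. The SUDHL4 library is of batch 1. The labels do not say that replicates were separate cultures, and with 1 SUDHL4 library the p-values rest on the spread between the other libraries, most of them of OCI-Ly7.

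Diffuse large B cell lymphoma is commonly divided by gene expression into a germinal centre B cell type and an activated B cell type, and both lines are counted with the germinal centre type. In a germinal centre, B cells divide, mutate their immunoglobulin genes and switch from IgM to other classes under the repressor BCL6. Those that leave towards the plasma cell fate raise IRF4, PRDM1 and XBP1. POU2F2 encodes OCT2, a B cell factor that binds the octamer motif, and POU2AF1 encodes OCA-B, the coactivator recruited to it. In bulk RNA, fewer cells of a type and less RNA per cell cannot be told apart.

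The libraries held 52481528, 31672976, 29541560 and 28874949 estimated reads in OCI-Ly7 (batch 1 library, then replicates 7, 8 and 9, the order used for all values below) and 50416203 in SUDHL4. The share of mitochondrially encoded genes was 7.80% to 13.2% in OCI-Ly7 and 9.76% in SUDHL4. All 8 defining B cell markers were detected in both lines, with a summed level of 3231 to 4370 CPM (TMM-scaled counts relative to library size) in OCI-Ly7 and 3421 CPM in SUDHL4. Of 24 T and NK cell markers, 15 lay under 1 CPM in all 5 libraries, CD3D and CD8A among those at 0, and the list summed to 385 to 477 CPM in OCI-Ly7 and 120.5 CPM in SUDHL4. Of 16 myeloid markers 14 lay under 1 CPM, with sums of 6.80 to 11.6 CPM in OCI-Ly7 and 2.23 CPM in SUDHL4. Of 13 stromal and epithelial markers 11 lay under 1 CPM, and the sums of 72.0 to 107 CPM in OCI-Ly7 and 3.73 CPM in SUDHL4 came mostly from PECAM1.

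The lines differed in 4448 of 18918 tested genes (23.5%) at an adjusted p below 0.05 in edgeR's quasi-likelihood test. Of these, 2083 (11%) were higher in OCI-Ly7 and 2365 (12.5%) lower. A fitted change of at least 2-fold was reached by 3545 (18.7%), of which 1717 were higher (9.08%) and 1828 lower (9.66%). At least 16-fold was reached by 635 genes higher in OCI-Ly7 (3.36%) and 579 lower (3.06%). Of the 4448 called genes, 4428 (99.5%) had all 4 OCI-Ly7 libraries on the same side of SUDHL4. The calls were made on these same libraries, so this share is a description and no separate support for them. The median fitted difference over all tested genes was 0.07 on the log2 scale. In raw levels, the median absolute log2 difference between 2 libraries was 0.15 to 0.39 within OCI-Ly7 and 0.46 to 0.56 between an OCI-Ly7 library and SUDHL4. Replicates 8 and 9 were closest, with 187 genes past 2-fold, and the batch 1 library and replicate 9 were farthest apart within the line, with 2410 genes. Between the lines 4149 to 5288 genes were past 2-fold.

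**Figure D1:**
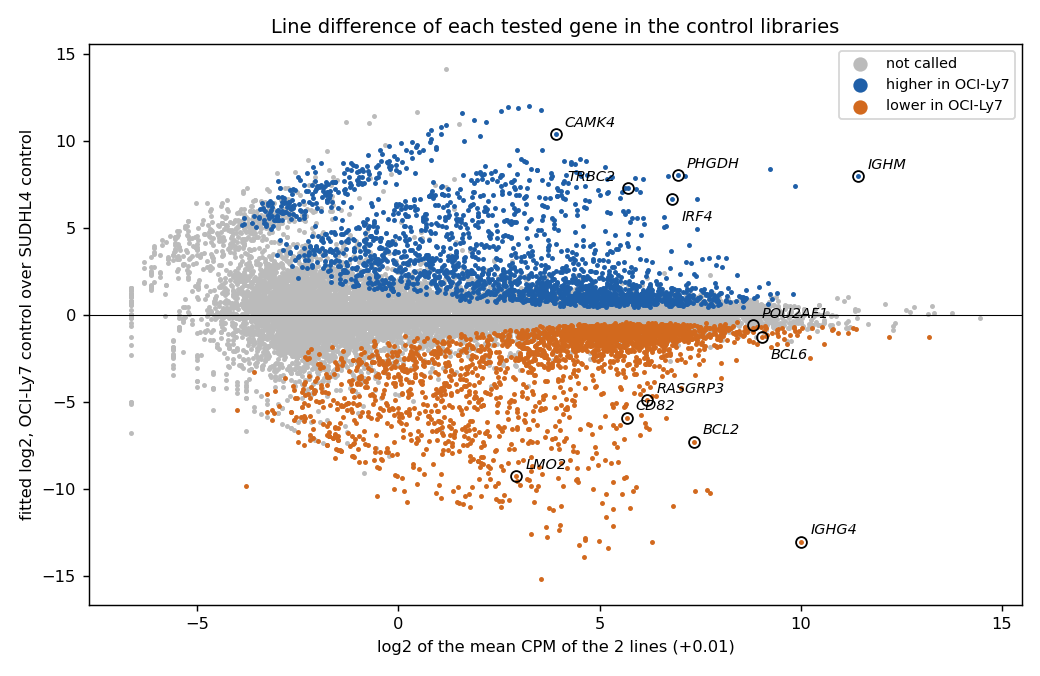
Fitted log2 difference of OCI-Ly7 over SUDHL4 control libraries (vertical axis) against the mean level in CPM on a log axis, 1 point per tested gene. Called genes are coloured, 2083 higher and 2365 lower in OCI-Ly7, and they lie on both sides at all levels.

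The fit corrects for batch, so a fitted log2 value can differ from the ratio of the printed levels. Batch 2 held no SUDHL4 library, so a value within a batch exists for batch 1 only. The batch 1 libraries alone called 5178 genes, and 3720 of the 4448 genes (83.6%) were called there in the same direction. Without the batch 1 OCI-Ly7 library, 3025 genes were called, 2970 of them among the 4448.

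The 2 genes that the series targets were measured first. POU2F2 was at 407, 239, 248 and 207 CPM in OCI-Ly7 and 330.2 CPM in SUDHL4. The SUDHL4 level lay inside the OCI-Ly7 range. The fitted log2 difference was 0.20 ± 0.46 (approximate standard error; adjusted p = 0.818). POU2AF1 was at 445, 455, 446 and 470.5 CPM in OCI-Ly7 and 442 CPM in SUDHL4, where the SUDHL4 level lay just under the lowest OCI-Ly7 library. Its fitted log2 difference was -0.56 ± 0.33 (adjusted p = 0.249), against 0.02 in batch 1 alone and -1.32 (adjusted p = 0.00136) without the batch 1 OCI-Ly7 library. POU2F1, which encodes the ubiquitous OCT1, was at 124, 101, 134 and 122 CPM in OCI-Ly7 and 107 CPM in SUDHL4 and was not called. The leading POU2AF1 transcript, POU2AF1-201, took 92.9%, 87.6%, 87.5% and 86.6% of the gene's deposited TPM in OCI-Ly7 and 88.3% in SUDHL4. For POU2F2-202 the shares were 54.0%, 50.6%, 40.1% and 50.9% in OCI-Ly7 and 34.02% in SUDHL4. POU2F2, POU2AF1 and POU2F1 were the 3 tested members of the octamer factor list, and 0 of them were called by edgeR, at an unadjusted p below 0.05 or by DESeq2.

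IRF4, PRDM1 and XBP1, factors of the plasma cell fate, were higher in OCI-Ly7, and the germinal centre genes SERPINA9, LMO2 and BCL6 were lower there. Of the 8 genes that the Lymph2Cx classifier reads for the activated B cell type, 6 were higher in OCI-Ly7 and 1 lower (87.5% called). Of its 7 tested germinal centre genes, 0 were higher and 4 were lower (57.1% called, against 23.5% of all tested genes). The median fitted log2 difference was 2.27 over the genes for the activated type and -1.43 over those for the germinal centre type, against 0.07 over all tested genes. IRF4 (chromosome 6, 391739 to 411447 on GRCh38), the factor that drives germinal centre exit, was at 179.9, 204, 252 and 249 CPM in OCI-Ly7 and 1.91 CPM in SUDHL4. Every OCI-Ly7 library lay far above SUDHL4, with a mean of 221 ± 35.2 CPM (SD, n = 4) and a log2 difference of 6.66 ± 0.61 (adjusted p = 1.08e-07). XBP1, the factor of the secretory programme, was at 127, 161, 106 and 113 CPM in OCI-Ly7 and 3.77 CPM in SUDHL4 (log2 difference 4.57 ± 0.64, adjusted p = 2.25e-05). PRDM1, the repressor that ends the B cell programme, was low in both lines, at 3.41, 5.42, 3.83 and 3.78 CPM in OCI-Ly7 and 0.104 CPM in SUDHL4, and called higher (log2 difference 5.12 ± 0.62). CREB3L2, a membrane-bound transcription factor, was at 63.01, 67.6, 78.6 and 79.8 CPM in OCI-Ly7 and 0.895 CPM in SUDHL4, with a log2 difference of 5.94 ± 0.39. Also higher were CCDC50 (2.03), LIMD1 (2.51) and PIM2 (1.28), a kinase that supports survival. The PIM2 call was lost without the batch 1 OCI-Ly7 library (1.39, adjusted p = 0.061). CYB5R2 was the activated type gene that was lower, at 0 to 0.0643 CPM in OCI-Ly7 and 2.33 CPM in SUDHL4.

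Among germinal centre genes the direction was mixed. Of 25 tested, 3 were higher and 6 lower (36% called, against 23.5% of all tested genes). SERPINA9, a serpin named for its germinal centre expression, was at 0.0379, 0.268, 0 and 0 CPM in OCI-Ly7 and 93.9 CPM in SUDHL4. All 4 OCI-Ly7 libraries were near 0, and the log2 difference was -10.25 ± 1.24 (adjusted p = 4.13e-06), a call lost without the batch 1 OCI-Ly7 library (-6.50, adjusted p = 1). LMO2, a scaffold protein of transcription factor complexes that is used as a germinal centre marker, had 3 reads in the 4 OCI-Ly7 libraries together and 728 reads (15.2 CPM) in SUDHL4. The level in SUDHL4 was 729.6 times that in OCI-Ly7, with a 95% counting interval of 249 to 3546. BCL6 (chromosome 3, 187721377 to 187745727) was expressed in both lines, at 303, 411, 344 and 305 CPM in OCI-Ly7 and 703 CPM in SUDHL4. Its log2 difference was -1.29 ± 0.30 (adjusted p = 0.00361), and -1.21 in batch 1 alone, where it was not called (adjusted p = 0.07). ASB13, a subunit of a ubiquitin ligase, was lower at 18.5, 23.9, 36.4 and 42.5 CPM in OCI-Ly7 and 159.8 CPM in SUDHL4. ITPKB, an inositol trisphosphate kinase, was also lower, with a log2 difference of -1.16 ± 0.16. MAML3, a Notch coactivator, was lower by the same test (log2 difference -2.12, adjusted p = 0.0335), but neither in batch 1 alone (adjusted p = 0.0582) nor without the batch 1 OCI-Ly7 library (-2.14, adjusted p = 0.11). GCSAM, a germinal centre adaptor that restrains migration, went the other way, at 159, 194, 283 and 258 CPM in OCI-Ly7 and 32.2 CPM in SUDHL4 (log2 difference 2.35 ± 0.55). BACH2, a repressor that delays plasma cell differentiation, was higher too, at 141, 183, 261 and 311 CPM in OCI-Ly7 and 60.7 CPM in SUDHL4. MME, which encodes CD10, was at 99.3, 109.6, 152 and 215 CPM in OCI-Ly7 and 386 CPM in SUDHL4, and S1PR2, a receptor that holds B cells in the follicle, at 98.2, 82.4, 73.4 and 82.7 CPM in OCI-Ly7 and 315 CPM in SUDHL4. Neither was called.

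Of the 12 tested genes of the whole plasma cell list, 5 were higher in OCI-Ly7, 1 was lower and 6 were not called. This is 50% called, against 23.5% of all tested genes. DERL3, part of the machinery that exports misfolded proteins from the endoplasmic reticulum, was higher at 47.2, 34.9, 53.6 and 68.95 CPM in OCI-Ly7 and 17.2 CPM in SUDHL4. JCHAIN, which joins IgM and IgA into polymers, was at 619.8, 690.2, 598 and 392 CPM in OCI-Ly7 and 365 CPM in SUDHL4 and was not called. CD27, a receptor of memory B cells and plasma cells, was the lower one, at 34.1, 41.5, 45.4 and 50.6 CPM in OCI-Ly7 and 161 CPM in SUDHL4 (log2 difference -2.30 ± 0.32). Of 19 naive and memory B cell genes, 5 were higher and 3 lower (42.1% called). The higher ones included FCER2, the low-affinity IgE receptor CD23, at 11.8, 7.36, 5.92 and 3.88 CPM in OCI-Ly7 and 0.208 CPM in SUDHL4, and KLF2, a factor of resting B cells, at 10.1, 1.14, 2.38 and 3 CPM in OCI-Ly7 and 0.479 CPM in SUDHL4. BANK1, a B cell scaffold protein, was at 0.114, 0, 0.0322 and 0.0326 CPM in OCI-Ly7 and 19.1 CPM in SUDHL4.

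**Figure D2:**
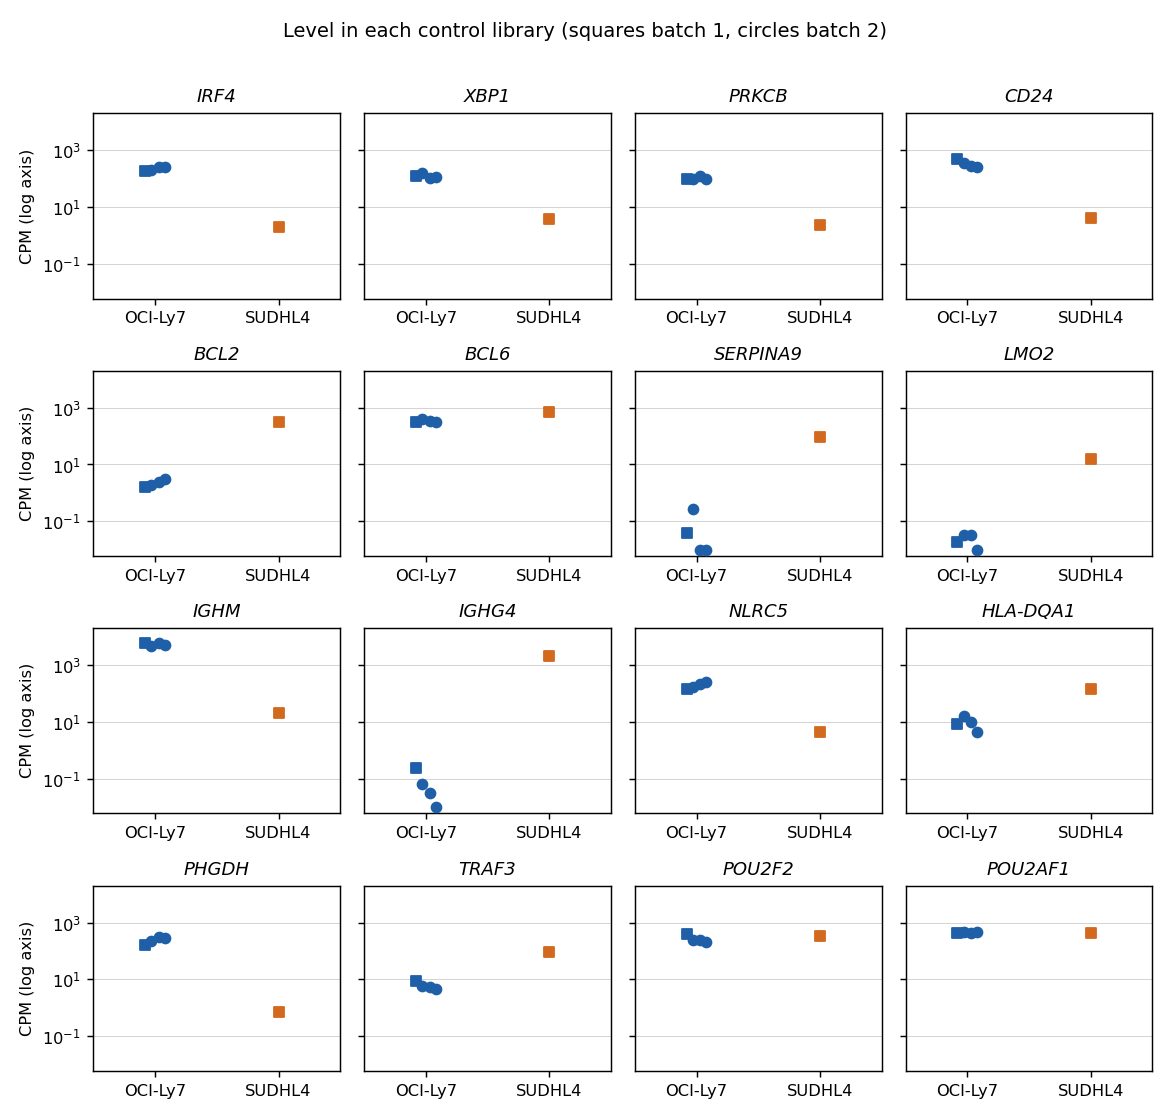
Level of 16 genes in each control library, in CPM on a log axis (0 drawn at 0.01), with OCI-Ly7 left of SUDHL4, squares for batch 1 and circles for batch 2. IRF4, XBP1, PRKCB, CD24, IGHM, NLRC5 and PHGDH lie higher in all 4 OCI-Ly7 libraries, BCL2, SERPINA9, LMO2, IGHG4, HLA-DQA1 and TRAF3 lie lower, and for POU2F2 and POU2AF1 the lines lie close together.

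The start regions of 4 of the genes with the clearest differences are shown because the series concerns the octamer, and because their base composition differs. Each is the 250 bases before the annotated start from RefSeq (GRCh38.p14), written 5′ to 3′ on the strand of the gene. The gene positions given in this report are of GENCODE, whose starts can differ. By those positions the BCL2 window lies inside the gene, and the IRF4 window runs past the start of the gene. In PRKCB (chr16:23835733-23835982, plus strand), a kinase gene higher in OCI-Ly7, and SERPINA9 (chr14:94476198-94476447, minus strand), higher in SUDHL4, capitals mark the octamer. In IRF4 (chr6:391502-391751, plus strand) and BCL2 (chr18:63319770-63320019, minus strand), which hold no octamer, capitals mark CG dinucleotides.
PRKCB: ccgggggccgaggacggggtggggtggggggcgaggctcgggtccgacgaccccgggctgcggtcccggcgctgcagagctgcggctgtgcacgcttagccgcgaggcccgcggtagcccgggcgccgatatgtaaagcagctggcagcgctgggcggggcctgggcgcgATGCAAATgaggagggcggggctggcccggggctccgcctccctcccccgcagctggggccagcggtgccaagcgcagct
SERPINA9: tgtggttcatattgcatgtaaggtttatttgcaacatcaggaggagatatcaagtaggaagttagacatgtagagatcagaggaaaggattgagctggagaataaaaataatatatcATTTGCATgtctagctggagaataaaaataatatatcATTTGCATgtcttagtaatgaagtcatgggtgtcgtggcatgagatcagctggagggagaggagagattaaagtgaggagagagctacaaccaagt
IRF4: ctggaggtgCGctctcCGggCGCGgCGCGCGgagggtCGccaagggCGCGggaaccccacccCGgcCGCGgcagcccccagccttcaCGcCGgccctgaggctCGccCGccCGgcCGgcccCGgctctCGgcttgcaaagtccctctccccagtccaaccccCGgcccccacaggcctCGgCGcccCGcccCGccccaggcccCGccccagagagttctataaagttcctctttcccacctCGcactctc
BCL2: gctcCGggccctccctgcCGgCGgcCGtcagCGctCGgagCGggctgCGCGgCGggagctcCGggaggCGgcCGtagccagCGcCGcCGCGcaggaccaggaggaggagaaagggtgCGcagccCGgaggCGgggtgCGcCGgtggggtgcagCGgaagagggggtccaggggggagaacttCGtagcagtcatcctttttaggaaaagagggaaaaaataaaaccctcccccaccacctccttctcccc
The PRKCB window held 1 octamer in the orientation of the gene, with 72 bases between it and the start. The SERPINA9 window held 2 on the other strand, 125 and 88 bases before the start, inside a repeated stretch, and 1 CG dinucleotide. IRF4 and BCL2 held 28 and 24 CG dinucleotides, a ratio of observed to expected of 0.83 and 0.79.

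The octamer (ATGCAAAT on either strand) was found in 1.77% of all 35116 RefSeq windows of 300 bases (250 before and 50 after the start). Over the windows of tested protein-coding genes the share was 1.62%, 251 of 15490 windows of 10642 genes. It was 2.07% (39 of 1888 windows, 95% Wilson interval 1.51% to 2.81%) for genes higher in OCI-Ly7, 1.60% (41 of 2565, 1.18% to 2.16%) for genes lower there and 1.55% for genes not called. The intervals cover counting error only and overlap, and several windows can belong to 1 gene. Of the 209 called genes on the lists, not all of which had a window, 6 had an octamer in one. These were PRKCB, CD53 and PIM2, which were higher, and SERPINA9, MEF2C and FCRLB, which were lower. The PRKCB and SERPINA9 windows printed above belong to these 6 genes, and an excess of the octamer was not tested.

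Immunoglobulin transcripts separated the lines by class. OCI-Ly7 expressed IGHM and IGHD, and SUDHL4 expressed IGHG genes. IGHM (chromosome 14, 105851705 to 105856218) was at 6081, 4595, 6189 and 5118 CPM in OCI-Ly7 and 21.4 CPM in SUDHL4, a log2 difference of 7.98 ± 0.70 (adjusted p = 7.04e-08). IGHD was at 58.2, 22.6, 129.8 and 162 CPM in OCI-Ly7 and 0.583 CPM in SUDHL4, with a wide spread within OCI-Ly7. IGHG4 was at 0.246, 0.0669, 0.0322 and 0 CPM in OCI-Ly7 and 2073 CPM in SUDHL4, a log2 difference of -13.00 ± 0.87 (adjusted p = 2.12e-09). The 4 IGHG constant genes are close copies that share reads, so their split is uncertain, while their sum was 0.587, 1.44, 0.547 and 0.881 CPM in OCI-Ly7 and 2677 CPM in SUDHL4. IGHG1 and IGHG2 were each called lower too, and both calls were lost without the batch 1 OCI-Ly7 library (log2 differences -6.84 and -7.45, adjusted p = 0.217 and 1). IGKC, the kappa light chain constant gene, was expressed in both, at 3270, 3893, 3213 and 2614 CPM in OCI-Ly7 and 1337 CPM in SUDHL4. It missed the threshold (log2 difference 1.06 ± 0.38, adjusted p = 0.0528) and passed it in batch 1 alone (1.30, adjusted p = 0.0244). IGLC1 was at 15.8, 18.97, 10.9 and 17.5 CPM in OCI-Ly7 and had 0 reads in SUDHL4, at least 252.5-fold higher in OCI-Ly7 against a floor of 3 reads. It is a near copy of the other lambda constant genes and shares reads with them, so its split from them is uncertain, and between the POU2AF1 knockdown libraries its log2 difference was -1.33 (adjusted p = 0.132). The lambda constant genes summed to 29.3 to 36.2 CPM in OCI-Ly7 and 10.6 CPM in SUDHL4, far under IGKC.

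Reads assigned to reference variable segments fell mostly on 1 heavy and 1 kappa segment in each line. How many reads mutated segments lose in this assignment was not tested. Heavy variable segments summed to 982, 1444, 1458 and 1137 CPM in OCI-Ly7 and 166 CPM in SUDHL4. Of 39 tested variable segments, 10 were higher in OCI-Ly7 and 4 lower, beside 11% higher and 12.5% lower over all tested genes. IGHV1-69D took 95.7% to 97.5% of heavy variable reads in OCI-Ly7, at 946, 1408, 1397 and 1088 CPM, against 2.29 CPM in SUDHL4. IGKV4-1 took 98.6% to 99.4% of kappa variable reads there, at 1863, 2333, 1814 and 1341 CPM, against 8.99 CPM in SUDHL4. IGHV4-59 had 1 read in OCI-Ly7 and took 95.7% of heavy variable reads in SUDHL4, at 159 CPM. IGKV2-28 was at 0.1704, 0, 1.25 and 0 CPM in OCI-Ly7 and took 94.5% of kappa variable reads in SUDHL4, at 429 CPM. IGHV1-18 was a minor segment of OCI-Ly7, at 31.5, 30.5, 58.6 and 47.1 CPM, against 0.0832 CPM in SUDHL4. The calls of IGHV4-59 and IGKV2-28 were lost without the batch 1 OCI-Ly7 library (log2 differences -9.38 and -4.56, adjusted p = 1 for both). The segments IGHV1-69D and IGKV2-28 have near-identical copies, IGHV1-69 and IGKV2D-28, that share their reads. The lower-level segments IGKV1D-8 and IGKV3D-7 (higher in OCI-Ly7) and IGKV2D-28 and IGHV4-28 (lower) each lost their call when 1 library or file was left out, at adjusted p up to 0.169, 0.41, 0.144 and 0.968. For IGKV2D-28 this was the second SUDHL4 file, for IGKV1D-8 and IGHV4-28 the batch 1 OCI-Ly7 library. IGKV3D-7 lost it without that library, without replicate 7 and without either SUDHL4 file.

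The enzymes of immunoglobulin mutation and of the related APOBEC3 family moved in both directions. Of 16 tested genes 5 were higher and 2 lower (43.75% called, against 23.5% of all tested genes). APOBEC3G, a cytidine deaminase that restricts retroviruses, was at 27.4, 33.1, 45.4 and 47.3 CPM in OCI-Ly7 and 6.64 CPM in SUDHL4. APOBEC3F was at 7.91, 8.77, 17.7 and 19.8 CPM in OCI-Ly7 and 0.708 CPM in SUDHL4. EXO1, the exonuclease of mismatch repair, was higher at 88.2, 108, 84.3 and 80.9 CPM in OCI-Ly7 and 30.2 CPM in SUDHL4, and PMS2, another mismatch repair gene, was lower (-0.75 ± 0.14).

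Both lines expressed the B cell receptor chains, and its signalling genes split between them. CD79B, a signalling chain of the receptor, was at 563, 458, 463 and 411 CPM in OCI-Ly7 and 258 CPM in SUDHL4 (log2 difference 1.04 ± 0.25). CD79A, the other chain, missed the threshold (1.02 ± 0.38, adjusted p = 0.06) and passed it in batch 1 alone (adjusted p = 0.0101). MS4A1, which encodes CD20, was at 1147, 875, 624 and 522 CPM in OCI-Ly7 and 875 CPM in SUDHL4 and was not called. Of 15 receptor chains and coreceptors 3 were higher and 2 lower (33.3% called). Of 24 kinases and adaptors 5 were higher and 7 lower (50% called, against 23.5% of all tested genes). PRKCB, the protein kinase C isoform that links the receptor to NF-kB, was at 101, 97.2, 126 and 97.1 CPM in OCI-Ly7 and 2.25 CPM in SUDHL4. No OCI-Ly7 library came near SUDHL4, and the log2 difference was 5.35 ± 0.38 (adjusted p = 4.21e-09). PTPN6, the phosphatase SHP-1 that dampens the receptor, was at 49.2, 33.4, 57.7 and 40.3 CPM in OCI-Ly7 and 4.83 CPM in SUDHL4 (2.97 ± 0.44). FYN, a Src family kinase, was higher at 38.1, 54.5, 66.6 and 63.7 CPM in OCI-Ly7 and 5.85 CPM in SUDHL4. Higher also were the adaptors BLNK (log2 difference 1.48 ± 0.19) and GRB2 (0.92 ± 0.17). RASGRP3, a Ras exchange factor, was lower, at 6.02, 11.98, 7.27 and 7.89 CPM in OCI-Ly7 and 137 CPM in SUDHL4 (-4.87 ± 0.44, adjusted p = 1.05e-07). MALT1, a protease of the receptor pathway, and VAV2, an exchange factor, were lower, with log2 differences of -1.15 ± 0.23 and -1.30 ± 0.19. The kinase LYN was called lower (-0.68), and the call was lost without the batch 1 OCI-Ly7 library (-0.66, adjusted p = 0.0878).

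Of 25 NF-kB subunits, regulators and response genes, 6 were higher in OCI-Ly7 and 6 lower (48% called, against 23.5% of all tested genes). TNFAIP3, the inhibitor A20, was at 40, 39.7, 32 and 32.4 CPM in OCI-Ly7 and 4.64 CPM in SUDHL4 (log2 difference 2.98 ± 0.35). BIRC3, a ubiquitin ligase induced by NF-kB, was at 166, 157, 109 and 113 CPM in OCI-Ly7 and 20.2 CPM in SUDHL4 (3.07 ± 0.37). CFLAR, an inhibitor of caspase 8, was higher by 1.55 ± 0.39. TRAF3, which restrains the alternative NF-kB pathway, was lower at 8.78, 5.79, 5.21 and 4.501 CPM in OCI-Ly7 and 89.8 CPM in SUDHL4. All 4 OCI-Ly7 libraries lay far under SUDHL4, with a log2 difference of -3.30 ± 0.33 (adjusted p = 3.18e-07). TNIP1, a partner of A20, and ICAM1, an adhesion molecule, were lower, with log2 differences of -1.64 ± 0.31 and -1.73 ± 0.40. Of the subunits, REL was called lower (-0.87), but not without the batch 1 OCI-Ly7 library (adjusted p = 0.161) or replicate 7 (0.0502). NFKB2 was called higher (1.36), but not in batch 1 alone (adjusted p = 0.119) or without the first SUDHL4 file (0.0869).

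Of 20 tested genes of the TNF receptor family and its ligands, 6 were higher in OCI-Ly7 and 1 was lower (35% called). Of 21 cytokine receptor chains, 8 were higher and 2 lower (47.6% called, against 23.5% of all tested genes). TNFRSF1A, the main TNF receptor, was at 22.4, 21.9, 26.01 and 29.3 CPM in OCI-Ly7 and 0.229 CPM in SUDHL4 (log2 difference 6.74 ± 0.39). TNFRSF21, a death domain receptor, was at 55.6, 51.8, 45.9 and 43.5 CPM in OCI-Ly7 and 0.499 CPM in SUDHL4. TNFRSF13B, the APRIL and BAFF receptor TACI, was at 5.49, 6.76, 9.45 and 9.099 CPM in OCI-Ly7 and 0.104 CPM in SUDHL4. The ligands CD70 (3.76 ± 0.43) and TNFSF8 (1.98 ± 0.29) were higher, whereas the CD70 receptor CD27 was the lower one. IL2RA, the alpha chain of the IL-2 receptor, was at 13.01, 18.6, 33.4 and 49.3 CPM in OCI-Ly7 and 0.479 CPM in SUDHL4. IL15RA was at 2.71, 2.51, 4.18 and 4.53 CPM in OCI-Ly7 and had 0 reads in SUDHL4, at least 54.0-fold higher in OCI-Ly7. IL7R (2.57 ± 0.41), TGFBR2 (2.27 ± 0.35) and IFNAR1 (1.18 ± 0.23) were higher, and CSF2RB, the common chain of the IL-3, IL-5 and GM-CSF receptors, was lower (-1.56 ± 0.24).

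Of 18 MHC class I genes, 5 were higher in OCI-Ly7 and 0 lower (27.8% called), and of 19 class II genes 1 was higher and 4 were lower (26.3%). Both shares lay near the 23.5% of all tested genes, and the classes were not tested against each other. NLRC5, the transactivator of class I genes, was at 140.3, 164, 223 and 261 CPM in OCI-Ly7 and 4.31 CPM in SUDHL4 (log2 difference 5.09 ± 0.44, adjusted p = 6.4e-08). HLA-C was at 419, 297, 474 and 339 CPM in OCI-Ly7 and 41.3 CPM in SUDHL4, and HLA-B at 167, 88.2, 177 and 146 CPM in OCI-Ly7 and 32.1 CPM in SUDHL4. B2M, the invariant light chain of class I, was at 565, 587, 712 and 562 CPM in OCI-Ly7 and 374 CPM in SUDHL4 and was not called. On the class II side, HLA-DQA1 was at 8.803, 15.9, 10.1 and 4.501 CPM in OCI-Ly7 and 143 CPM in SUDHL4 (log2 difference -4.13 ± 0.63), and HLA-DQB1 at 28.7, 23.7, 32.1 and 20.1 CPM in OCI-Ly7 and 130.2 CPM in SUDHL4 (-2.62 ± 0.38). HLA-DPB1 and HLA-DRB5 were lower, with log2 differences of -1.37 ± 0.33 and -0.96 ± 0.30, and neither was called in batch 1 alone (adjusted p = 0.078 and 0.0749). HLA-DQB2 was the higher one, with 973 reads in the 4 OCI-Ly7 libraries and 3 in SUDHL4, a ratio of 108 (95% counting interval 36.8 to 524). CD74, the invariant chain, was at 2215, 1994, 1970 and 1461 CPM in OCI-Ly7 and 2522 CPM in SUDHL4 and was not called. HLA genes are near copies of each other that share reads, so the differences of single HLA genes are uncertain.

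Type I interferon stimulated genes were higher in 8 of 29 tested cases and lower in 3 (37.9% called, against 23.5% of all tested genes). MX1, an antiviral GTPase, was at 18.4, 18.9, 18.9 and 12.8 CPM in OCI-Ly7 and 0.125 CPM in SUDHL4 (log2 difference 6.71 ± 0.66). OAS3, an activator of RNase L, was at 14.6, 17.3, 25.6 and 32.03 CPM in OCI-Ly7 and 0.146 CPM in SUDHL4 (6.79 ± 1.05). IFIH1, the RNA sensor MDA5, was at 20.7, 23.99, 18.1 and 19.6 CPM in OCI-Ly7 and 0.853 CPM in SUDHL4 (4.59 ± 0.27). SAMD9L (5.33 ± 0.78) and MX2 (3.90 ± 0.78) were higher as well. CMPK2 had 3 reads in OCI-Ly7 and 131 in SUDHL4, and its neighbour RSAD2 1 and 44 reads, ratios of SUDHL4 to OCI-Ly7 of 131 (43.9 to 645) and 132 (22.5 to 5342). EPSTI1 was lower too, at 0.303, 0.502, 0.514 and 0.391 CPM in OCI-Ly7 and 4.93 CPM in SUDHL4. Of 19 Toll-like receptors and adaptors, 3 were higher and 4 lower (36.8% called). TLR7, the receptor for single-stranded RNA, was at 18.3, 17.1, 19.9 and 15.1 CPM in OCI-Ly7 and 0.499 CPM in SUDHL4, and TLR4, the receptor for lipopolysaccharide, at 22.8, 21.01, 14.9 and 13.8 CPM in OCI-Ly7 and 1.25 CPM in SUDHL4. IRAK4, a kinase downstream of these receptors, was lower (log2 difference -1.04 ± 0.18), and so was CD180, an inhibitory relative of TLR4 (-1.07 ± 0.32).

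The BCL2 family set the lines apart most by BCL2 itself. BCL2, the anti-apoptotic gene joined to the immunoglobulin heavy chain locus by a translocation in many germinal centre lymphomas (chromosome 18, 63123346 to 63320128), was at 1.67, 1.84, 2.35 and 3 CPM in OCI-Ly7 and 321 CPM in SUDHL4. The 4 OCI-Ly7 libraries averaged 2.21 ± 0.599 CPM (SD, n = 4), and the log2 difference was -7.27 ± 0.58 (adjusted p = 1.89e-08). Of 15 tested members 3 were higher and 5 lower (53.3% called, against 23.5% of all tested genes). BCL2A1, an anti-apoptotic relative, was lower at 0.416, 0.736, 0.7396 and 0.848 CPM in OCI-Ly7 and 9.697 CPM in SUDHL4, and BCL2L11, the pro-apoptotic BIM, was lower (log2 difference -1.54 ± 0.21). Of the pro-apoptotic genes BIK and HRK, BIK was at 69.3, 54.8, 34.9 and 33.9 CPM in OCI-Ly7 and 8.802 CPM in SUDHL4, and HRK at 17.7, 17.5, 54.5 and 72.1 CPM in OCI-Ly7 and 1.17 CPM in SUDHL4, both called higher. BCL2L2, which encodes the anti-apoptotic BCL-W, was higher by 1.28 ± 0.36. MCL1 was at 360.1, 236, 207 and 205 CPM in OCI-Ly7 and 330.1 CPM in SUDHL4 and was not called.

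Of 11 tested genes of the MYC and MAX network 1 was higher and 3 were lower (36.4% called, against 23.5% of all tested genes). MYC was at 302, 247, 309 and 300.3 CPM in OCI-Ly7 and 531 CPM in SUDHL4, and was called lower (log2 difference -0.79 ± 0.24, adjusted p = 0.0231), a call lost without the batch 1 OCI-Ly7 library (-0.77, adjusted p = 0.0929). MXD4, a MAX partner that opposes MYC, was lower at 5.699, 2.54, 6.303 and 7.403 CPM in OCI-Ly7 and 93.8 CPM in SUDHL4 (-3.53 ± 0.49). Of 20 G1 regulators 2 were higher and 3 lower (25% called). CCND3, the cyclin of germinal centre B cells, was at 249, 224, 239 and 219.5 CPM in OCI-Ly7 and 59.5 CPM in SUDHL4 (1.87 ± 0.32), and CDK6, a kinase it activates, at 122, 111, 100.2 and 107 CPM in OCI-Ly7 and 367 CPM in SUDHL4 (-1.77 ± 0.41). CDK2 was lower (log2 difference -0.65 ± 0.18). Of 24 S phase genes 4 were higher and 0 were lower (16.7% called, against 23.5% of all tested genes). MCM2, MCM5 and GINS2, which take part in replication, were among the higher ones, by 0.46 to 1.05 on the log2 scale. These 3 lost the call without the batch 1 OCI-Ly7 library (adjusted p = 0.0824, 0.169 and 0.0897), and MCM5 also without replicate 7 (0.0617) or 8 (0.0607). Of 24 G2 and M phase genes, BIRC5, which encodes survivin, was the 1 called (4.17% called, log2 difference 0.72 ± 0.17). Among 24 ribosome biogenesis genes FBL, the methyltransferase of ribosomal RNA, was the 1 called, and it was lower (4.17% called, log2 difference -0.77 ± 0.20). Of 19 tested genes of p53 and its targets 4 were higher, 1 was lower and 14 were not called. This is 26.3% called, near the 23.5% of all tested genes, with a median log2 difference of -0.07. Among the higher ones were MDM4 (1.41 ± 0.29) and MDM2 (0.87 ± 0.24), a pair of related genes. SESN1, a stress protein, was higher too, at 13.7, 15.5, 13.4 and 13.8 CPM in OCI-Ly7 and 2.46 CPM in SUDHL4.

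Of 26 lineage transcription factors 8 were higher and 6 lower in OCI-Ly7 (53.8% called, against 23.5% of all genes). PAX5, which fixes B cell identity, was at 309.9, 189, 319.9 and 271 CPM in OCI-Ly7 and 112 CPM in SUDHL4 (log2 difference 1.47 ± 0.28). TCF4, which encodes the E protein E2-2, was at 84.7, 86.4, 112 and 120.0 CPM in OCI-Ly7 and 3.995 CPM in SUDHL4 (4.68 ± 0.41, adjusted p = 7e-08). TCF12, another E protein gene, went the other way (-0.88 ± 0.18). The inhibitors of E proteins were higher together with TCF4. ID3 was at 486, 211, 330.2 and 272 CPM in OCI-Ly7 and 49.9 CPM in SUDHL4, and ID2 at 87.3, 72.1, 83.96 and 95.2 CPM in OCI-Ly7 and 6.33 CPM in SUDHL4. ETV6, an ETS family repressor, was at 29.6, 30.7, 52.7 and 57.3 CPM in OCI-Ly7 and 0.708 CPM in SUDHL4 (5.75 ± 0.54). ETS1 was at 924, 1034, 877 and 825 CPM in OCI-Ly7 and 244 CPM in SUDHL4 (1.83 ± 0.21). MEF2C, a factor of B cell proliferation, was lower at 24.2, 23.8, 12.7 and 15.98 CPM in OCI-Ly7 and 186 CPM in SUDHL4 (-3.29 ± 0.40). IKZF1, which encodes Ikaros, was lower (log2 difference -1.15 ± 0.23), as were RUNX1 (-0.87 ± 0.22) and RUNX3 (-0.65 ± 0.15). Of 26 chromatin regulators mutated in B cell lymphoma 2 were higher and 1 was lower (11.5% called), with BCOR, a subunit of a Polycomb complex, higher (1.31 ± 0.25). TET2, a DNA demethylating enzyme, was the lower one, at 0.0568, 0.0669, 0.193 and 0.326 CPM in OCI-Ly7 and 3.73 CPM in SUDHL4.

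**Figure D3:**
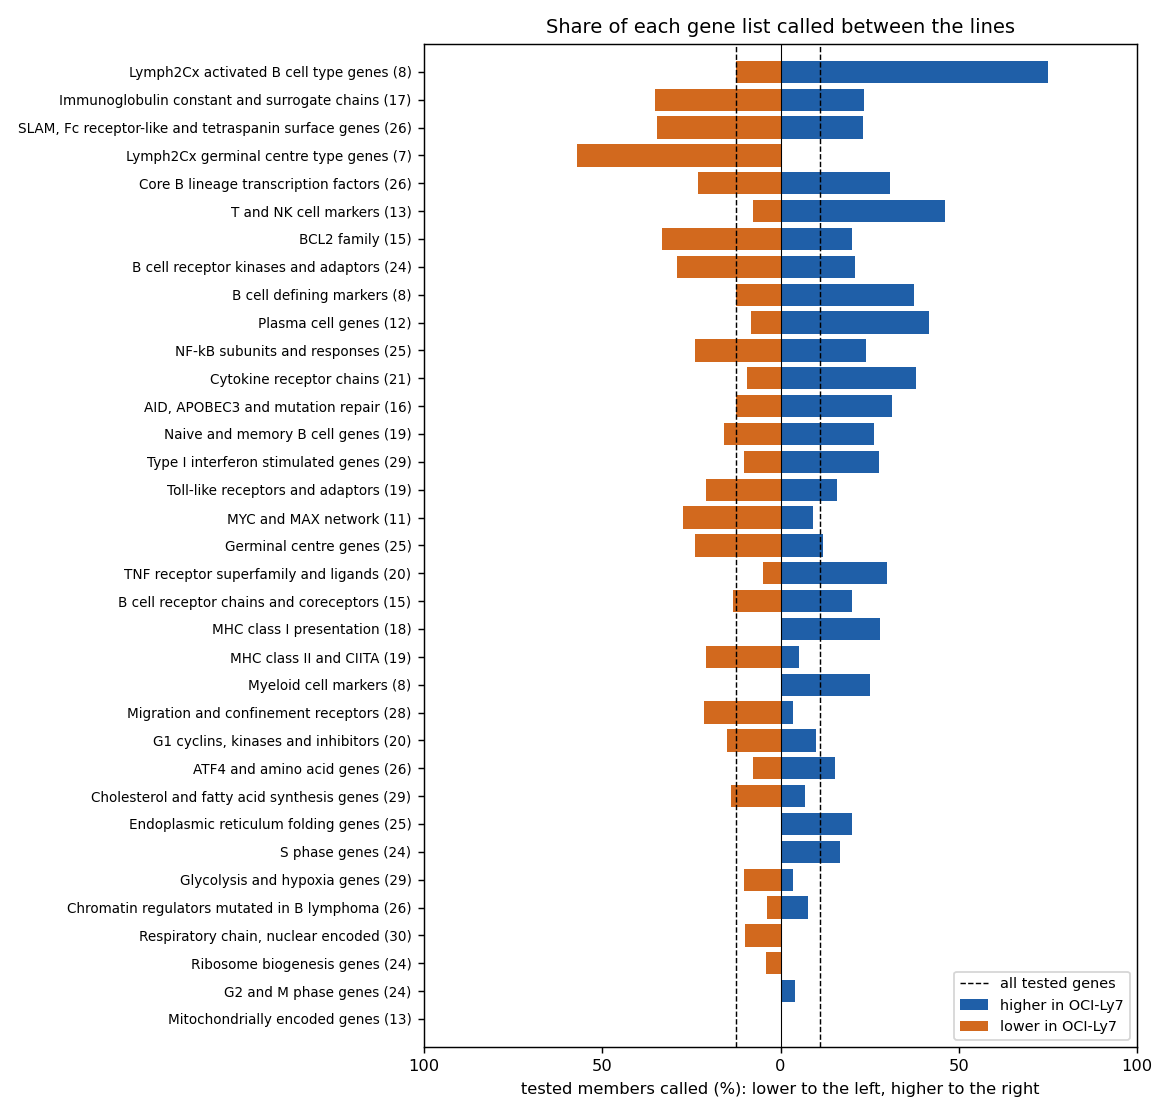
Share of tested members of each gene list that were called higher (right) or lower (left) in OCI-Ly7 than in SUDHL4, for lists with 7 or more tested members, 1 of which is not shown. Dashed lines mark the shares over all tested genes, 11% higher and 12.5% lower, and the Lymph2Cx sets for the activated and the germinal centre type lie furthest out on opposite sides.

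Of 26 surface genes of the SLAM, Fc receptor-like and tetraspanin families 6 were higher and 9 lower (57.7% called, against 23.5% of all tested genes). CD24, a glycoprotein of immature and germinal centre B cells, was at 473, 344, 276 and 252 CPM in OCI-Ly7 and 4.22 CPM in SUDHL4 (log2 difference 6.64 ± 0.39, adjusted p = 4.32e-10). FCRL5, an Fc receptor-like gene of memory B cells, was at 76.7, 79.2, 166 and 161 CPM in OCI-Ly7 and 1.498 CPM in SUDHL4 (5.57 ± 0.84). CD84, a SLAM receptor, was higher by 1.01 ± 0.22, and CD53, a tetraspanin, by 1.03 ± 0.25, a call lost without the batch 1 OCI-Ly7 library (0.84, adjusted p = 0.0551). Several tetraspanins were lower. CD82 was at 1.69, 1.305, 3.09 and 1.96 CPM in OCI-Ly7 and 99.9 CPM in SUDHL4 (-5.88 ± 0.40), and CD151 at 0.133, 0.0669, 0.129 and 0.196 CPM in OCI-Ly7 and 15.2 CPM in SUDHL4 (-6.55 ± 0.75). TSPAN33 (-2.48 ± 0.32) and CD63 (-1.54 ± 0.20) were lower too, as were SLAMF1, at 0.416, 0.669, 0.514 and 0.359 CPM in OCI-Ly7 and 12.8 CPM in SUDHL4, CD99 (-1.36 ± 0.20) and FCRLB (-2.49 ± 0.45). Of 28 migration and confinement genes 1 was higher and 6 were lower (25% called, near the 23.5% of all tested genes). CXCR5, which guides B cells into follicles, was at 13.7, 9.07, 16.6 and 18.9 CPM in OCI-Ly7 and 56.8 CPM in SUDHL4 (-1.97 ± 0.39). The integrin chains ITGAL (-1.82 ± 0.20) and ITGA4 (-1.08 ± 0.20) and the adhesion molecules ICAM1 and ICAM3 (-1.68 ± 0.36) were lower. PTGER4, a prostaglandin receptor, had 2 reads in OCI-Ly7 and 203 in SUDHL4, a ratio of SUDHL4 to OCI-Ly7 of 305 (95% counting interval 83.4 to 2537).

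Some genes known best from T and NK cells were expressed in OCI-Ly7, while CD3D and CD8A were at 0 in all 5 libraries. Of 13 tested markers 6 were higher and 1 lower (53.85% called, against 23.5% of all tested genes). LCK, a Src family kinase, was expressed in both lines, at 211, 242, 258 and 268 CPM in OCI-Ly7 and 71.2 CPM in SUDHL4. ZAP70, a kinase of the T cell receptor, was at 37.5, 25.1, 33.1 and 39.8 CPM in OCI-Ly7 and 0.208 CPM in SUDHL4 (log2 difference 7.57 ± 0.43). TRBC2, a constant segment of the T cell receptor beta chain, was at 89.5, 103, 108 and 116 CPM in OCI-Ly7 and 0.687 CPM in SUDHL4 (7.29 ± 0.38). TRBC1, its close copy, was at 3.16, 3.55, 4.47 and 5.32 CPM in OCI-Ly7 and had 0 reads in SUDHL4, at least 63.8-fold higher in OCI-Ly7, and the 2 copies share reads. TRAC was at 26.1, 42.9, 27.1 and 28.3 CPM in OCI-Ly7 and 3.62 CPM in SUDHL4, and the adaptor LAT at 13.8, 9.33, 13.5 and 12.9 CPM in OCI-Ly7 and 3.66 CPM in SUDHL4. CD247, which encodes the zeta chain, was the lower one, at 1.19, 0.8698, 2.03 and 1.402 CPM in OCI-Ly7 and 35.1 CPM in SUDHL4 (-5.28 ± 0.54). Of the other marker lists, 2 of 8 tested myeloid markers and 1 of 4 stromal and epithelial markers were higher (25% called in each). AIF1, a macrophage gene, had 968 reads in OCI-Ly7 and 2 in SUDHL4, a ratio of 161 (44.5 to 1331), and PECAM1, the adhesion molecule CD31, was at 79.1, 106, 70.2 and 68.8 CPM in OCI-Ly7 and 2.39 CPM in SUDHL4 (4.61 ± 0.51).

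Of the ATF4 and amino acid genes 23.1% were called, of the cholesterol and fatty acid genes 20.7% and of the glycolysis and hypoxia genes 13.8%, against 23.5% of all tested genes. PHGDH, the first enzyme of serine synthesis, was at 169, 218, 303 and 290.4 CPM in OCI-Ly7 and 0.708 CPM in SUDHL4. All 4 OCI-Ly7 libraries lay over 100 CPM, and the log2 difference was 8.05 ± 0.58 (adjusted p = 4.69e-09). PSAT1, the next enzyme, was higher by 0.71 ± 0.23 but was not called in batch 1 alone (0.50, adjusted p = 0.0822). SHMT2 and MTHFD2, which carry the carbon of serine into folate in mitochondria, were lower, SHMT2 at 207, 264, 281 and 294 CPM in OCI-Ly7 and 578 CPM in SUDHL4 (-1.40 ± 0.24) and MTHFD2 with a log2 difference of -0.78 ± 0.18. SLC6A9, a glycine transporter, was higher (3.22 ± 0.66). In all, 4 of 26 ATF4 and amino acid genes were higher and 2 lower. Of 29 glycolysis and hypoxia genes 1 was higher and 3 were lower. SLC2A3, the glucose transporter GLUT3, was at 12, 13.4, 16.6 and 16.01 CPM in OCI-Ly7 and 0.167 CPM in SUDHL4 (6.16 ± 0.46). PFKM, the muscle type phosphofructokinase, was lower (-1.55 ± 0.26). HK1, a hexokinase, was at 30.9, 41.3, 64.4 and 81.5 CPM in OCI-Ly7 and 109 CPM in SUDHL4 (-1.91 ± 0.47). GPI was called lower (-0.99, adjusted p = 0.0493), and the call was lost without the batch 1 OCI-Ly7 library (0.0643), replicate 8 (0.0699) or 9 (0.0713), without either SUDHL4 file (0.0592 and 0.0609) and without 1 OCI-Ly7 POU2AF1 knockdown library (0.0589).

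Within OCI-Ly7, replicates 8 and 9 differed from the batch 1 library and replicate 7 in several genes of this list. ALDOC, an aldolase, was at 7.19, 4.88, 184 and 246 CPM in OCI-Ly7 and 69.7 CPM in SUDHL4. SUDHL4 lay between the 2 pairs of OCI-Ly7 libraries, and ALDOC was not called. ENO1, an enolase, was at 1334, 1591, 2656 and 2716 CPM in OCI-Ly7 and 1409 CPM in SUDHL4, and was not called either. The summed level of the list was 11725 to 18512 CPM in OCI-Ly7 and 16096 CPM in SUDHL4.

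**Figure D4:**
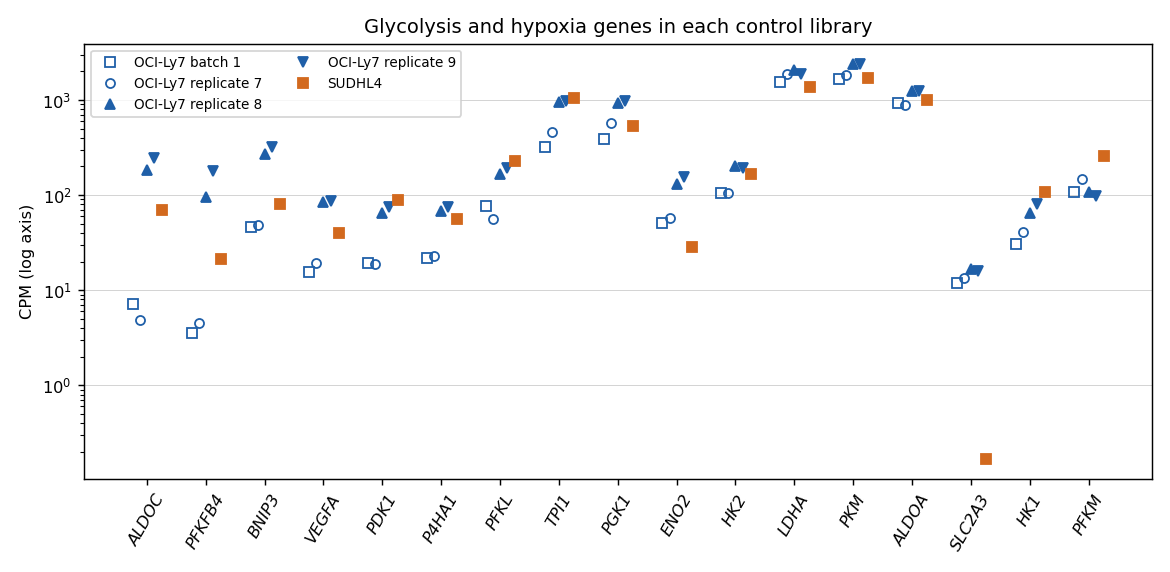
Level of 17 glycolysis and hypoxia genes in each control library, in CPM on a log axis, with OCI-Ly7 left of SUDHL4. For OCI-Ly7, open squares are the batch 1 library, open circles replicate 7, upward triangles replicate 8 and downward triangles replicate 9. Filled squares are SUDHL4. SLC2A3 is higher in all 4 OCI-Ly7 libraries, and for ALDOC the SUDHL4 level lies between the batch 1 library and replicate 7 below and replicates 8 and 9 above.

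Of 29 cholesterol and fatty acid genes 2 were higher and 4 lower. FADS1, a fatty acid desaturase, was at 0.114, 0, 0.0643 and 0 CPM in OCI-Ly7 and 38.4 CPM in SUDHL4 (log2 difference -8.32 ± 0.93), and was not called without the batch 1 OCI-Ly7 library (-8.09, adjusted p = 0.064). ACACA, which makes malonyl-CoA, was lower (log2 difference -1.14 ± 0.22). In the list of endoplasmic reticulum folding genes 5 of 25 were higher and 0 lower (20% called, against 23.5% of all tested genes). ERO1B, an oxidase of disulphide formation, was at 20.8, 15.5, 13.4 and 17.8 CPM in OCI-Ly7 and 1.75 CPM in SUDHL4 (log2 difference 3.55 ± 0.32). P4HB, a disulphide isomerase, was at 660.2, 646, 541 and 533 CPM in OCI-Ly7 and 206 CPM in SUDHL4, and its call was lost without the batch 1 OCI-Ly7 library (1.11, adjusted p = 0.061). SEL1L, part of the export of misfolded proteins, was higher by 0.68 ± 0.18, and XBP1 is on this list too. HSPA5, the chaperone BiP, was at 687, 881, 336 and 239.8 CPM in OCI-Ly7 and 281 CPM in SUDHL4, with replicate 9 under and the other 3 over SUDHL4, and was not called. Of 30 nuclear-encoded respiratory chain genes 0 were higher and 3 lower (10% called). ATP5F1A, the alpha subunit of ATP synthase, was at 343, 504, 316 and 286 CPM in OCI-Ly7 and 1006 CPM in SUDHL4 (-1.66 ± 0.31), and NDUFV2 and SDHA were lower, with log2 differences of -0.93 ± 0.22 and -0.66 ± 0.19. ATP5F1A and NDUFV2 lie on chromosome 18. Of 13 mitochondrially encoded genes 0 were called by edgeR, at an unadjusted p below 0.05 or by DESeq2.

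The largest fitted differences among protein-coding genes of at least 20 CPM in 1 line were close to presence and absence. Higher in OCI-Ly7 were CAMK4, ZC4H2, PRSS21, RADX, HDGFL3, CRIM1, MID1IP1, ZNF518B, LAX1 and ZNF141. CAMK4, a calcium-dependent kinase (chromosome 5, 111223653 to 111494886), was at 27.5, 26.6, 31.2 and 34.9 CPM in OCI-Ly7 and had 1 read in SUDHL4, a ratio of 1426 (95% counting interval 256 to 56348). PRSS21, the serine protease testisin, was at 48.7, 53.96, 41.4 and 37.9 CPM in OCI-Ly7 and 0.0832 CPM in SUDHL4 (log2 difference 8.93 ± 0.51). LAX1, an adaptor that restrains antigen receptor signals, was at 39.5, 42.02, 42.5 and 44.7 CPM in OCI-Ly7 and 0.125 CPM in SUDHL4 (8.20 ± 0.32). MID1IP1, a regulator of fatty acid synthesis, was at 102, 40.5, 68.4 and 68.1 CPM in OCI-Ly7 and 0.312 CPM in SUDHL4. The lower ones were ALKBH3, SLC25A13, THY1, EVC, MRS2, TSPAN18, KCNMB2, MYO6, CCDC152 and DCN. Of these 10, the first 9 had no read in any OCI-Ly7 control library, and against a floor of 3 reads SUDHL4 was at least 1123-fold (ALKBH3) to at least 3564-fold (THY1) higher. THY1, the surface glycoprotein CD90, was at 74 CPM in SUDHL4. ALKBH3, a DNA and RNA demethylase, was at 23.3 CPM, and MRS2, a mitochondrial magnesium channel, at 63.1 CPM in SUDHL4. DCN, the proteoglycan decorin, had 1 read in OCI-Ly7 and 79.9 CPM in SUDHL4, a ratio of SUDHL4 to OCI-Ly7 of 11542 (2070 to 455988). The calls of SLC25A13, THY1, MRS2, TSPAN18, KCNMB2 and CCDC152 were lost without the batch 1 OCI-Ly7 library (adjusted p = 1 for each, at fitted log2 differences of -13.85 to -9.77, which for genes at 0 reads are no folds), when the remaining OCI-Ly7 controls were all of batch 2 and the SUDHL4 library of batch 1.

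By chromosome, the difference was not even. Among tested protein-coding genes, those of chromosome 18 had a median log2 difference of -1.05 (172 genes). Of these, 14 were called higher in OCI-Ly7 and 95 lower, and 82.0% lay below 0. Of all 13389 tested protein-coding genes 27.4% were called, 1595 higher and 2073 lower. Chromosome 13 had a median of -0.53 (214 genes, 15 higher and 69 lower) and chromosome 7 of -0.44 (610 genes, 30 higher and 166 lower). The medians of the other chromosomes lay between -0.24 and 0.18. The chromosome 18 median was -1.04 in batch 1 alone, and -0.83 and -0.96 between the POU2AF1 and POU2F2 knockdown libraries of the lines. Split by gene order into 4 equal parts, chromosome 18 had medians of -0.26, -0.81, -1.66 and -1.27 along its length, and chromosome 13 reached -1.21 in its last part. BCL2, ATP5F1A, NDUFV2 and MALT1 are among the lower genes of chromosome 18. Against its direction, MTCL1, a microtubule crosslinker, was at 114, 99.7, 109.7 and 113 CPM in OCI-Ly7 and 2.33 CPM in SUDHL4 (log2 difference 5.58 ± 0.24), CABLES1, a partner of cyclin-dependent kinases, at 33.6, 41.4, 50.3 and 53.2 CPM in OCI-Ly7 and 0.146 CPM in SUDHL4 (8.16 ± 0.41), and TCF4 was higher too. MTCL1 and CABLES1 were chosen after their values were seen. DNA copy number was not measured here.

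**Figure D5:**
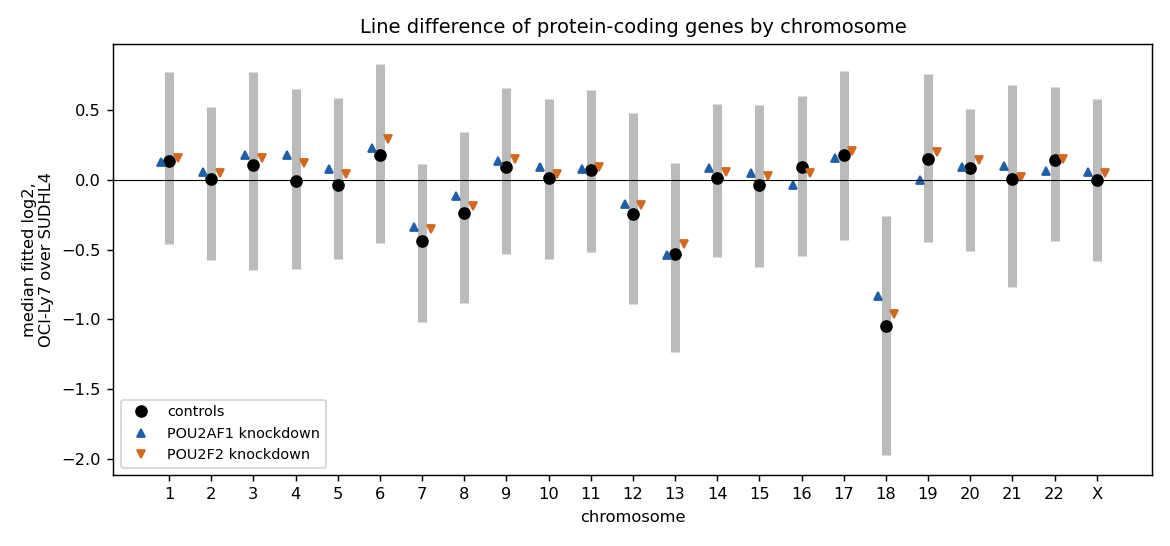
Median fitted log2 difference of OCI-Ly7 over SUDHL4 controls for the tested protein-coding genes of each chromosome (points) with the range between quartiles (bars). The triangles give the medians of the same contrast in the knockdown libraries. Chromosome 18 lies lowest at -1.05, followed by 13 at -0.53 and 7 at -0.44.

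The same contrast was made between the knockdown libraries of the lines. They are other libraries than the controls, but all were fitted together with 1 batch term, which the OCI-Ly7 controls help to set. All OCI-Ly7 POU2F2 knockdown libraries are of batch 2 and both SUDHL4 ones of batch 1, so line and batch coincide in that contrast. Without the batch term the line difference in POU2F2 knockdown libraries called 8184 genes. Between the POU2AF1 knockdown libraries of the lines 6290 genes were called (33.2%), and between the POU2F2 knockdown libraries 5302 (28%). Of the 4448 genes called between the controls, 3476 (78.2%) were called in the same direction in the POU2AF1 contrast, which is 55.3% of the genes called there. In the POU2F2 contrast it was 3849 (86.5%), which is 72.6% of the genes called there. In both contrasts it was 3216 (72.3%), and 19 genes were called in the opposite direction in the POU2AF1 contrast and 1 in the POU2F2 contrast. The difference between contrasts itself was called for 151 genes with POU2AF1 knockdown and for 2 with POU2F2 knockdown. Among members of the lists, PRKCB had a log2 difference of 5.35 between controls and 2.84 between POU2AF1 knockdowns (interaction adjusted p = 0.00214), and PTPN6 2.97 and -0.70 (0.0011). SUDHL4 has 1 POU2AF1 knockdown library, so each of these rests on 2 single SUDHL4 libraries. Replicate 1 of the OCI-Ly7 POU2AF1 knockdown held 25.8% mitochondrially encoded reads, against 7.04% to 9.74% in the other libraries of its group. The POU2AF1 contrast and its interactions were not fitted without this library.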

How the data were processed

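Reads were trimmed with fastp and quantified with Salmon 1.5.1 against GRCh38.p13, per the submitters' processing notes. Which annotation release and library type were set was not stated. The authors deposited, for each of 26 files, 227912 transcripts with estimated counts of reads and deposited TPM. Of these transcripts, 205964 were matched to GENCODE release 29 genes by identifier, with 98.5% to 98.8% of the reads of the control files, and the 21948 others were left out. Estimated counts were summed over 58592 genes and rounded, and 58201 had a current symbol. Deposited TPM gave the transcript shares.

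Files of a group that differed by less than 1.5 times the sampling noise of their counts were merged. This joined OCI-Ly7 control files 1 and 2, both SUDHL4 control files and both SUDHL4 POU2AF1 knockdown files. For 93.3% of 26588 genes, OCI-Ly7 control file 3 was at most 2 reads away from files 1 and 2 added together, and it was left out. The 22 libraries were fitted together with edgeR 4.0.16 (TMM scaling, filterByExpr at 10 counts, 6 groups and batch as terms, robust quasi-likelihood; 18918 genes, coefficient of variation 0.298, 15 residual degrees of freedom). A gene was called at an adjusted p (Benjamini-Hochberg) below 0.05. Levels are CPM after TMM scaling. The error of a fitted value is an approximate standard error, the log2 difference divided by the square root of its quasi-likelihood F statistic. For a line at or near 0 reads it does not measure the precision of the value. A group at 0 was given a floor of 3 reads over the group, and a group with 1 to 3 reads a 95% counting interval, for counting error only. On simulated counts for this comparison (17505 genes) 32% of 100 genes changed 4-fold and 0% of 100 changed 2-fold were called, with 0 false calls. These counts had the same spread for every gene and no batch effect, and few genes changed, all above a minimum level. The rates hold for that setting only and cannot vouch for the calls in the real data. DESeq2 1.42.0 and limma 3.58.1 (on log2 of deposited TPM plus 1), other filters, scalings and blocks, and left-out libraries were alternatives. R 4.3.3, Python 3.11.15, pandas 2.3.3, numpy 2.4.6, scipy 1.17.1 and matplotlib 3.10.9 were used.

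The members and the 39 gene lists (757 genes, 668 tested, 209 or 31.3% called) were chosen with earlier results of these data known. Named are the 10 called protein-coding genes outside chromosome Y with the largest fitted difference in each direction, at least 20 CPM in the higher line and all OCI-Ly7 libraries on 1 side, immunoglobulin and T cell receptor segments left out. Also named are list members with the counts of their list, POU2F2 and POU2AF1, and up to 5 called variable segments of each line by level. Some list members counted here are not reported by name.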

Additional observations from a re-analysis of the deposited data

Results flagged for a closer look

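In 16 of 189 named genes 1 of the 4 OCI-Ly7 libraries stood apart from the other 3 by Dixon's test at 95%, which chance alone does in about 1 of 20 groups. Replicate 8 was highest for PRKCB, at 126.5 CPM against 97.1 to 101 CPM in the others, replicate 7 for TRAC, at 42.9 CPM against 26.1 to 28.3 CPM, for GPI, at 442 CPM against 311 to 318 CPM, and for CD53, at 151 CPM against 111 to 114 CPM. Replicate 7 was lowest for MYC, at 247 CPM against 300.3 to 309 CPM. Replicate 9 was lowest for MX1, at 12.8 CPM against 18.4 to 18.9 CPM. The batch 1 library was lowest for AIF1, at 4.17 CPM against 8.03 to 8.35 CPM, for SDHA, at 139 CPM against 155 to 158 CPM, and for CDK2, at 84.8 CPM against 99.3 to 102 CPM. In 7 genes near 0 in OCI-Ly7 the flag rests on few reads. These were DCN (0.0189 CPM in the batch 1 library), CMPK2 (0.0568 CPM there), IGKV2-28 (1.25 CPM in replicate 8), IGHV4-59 (0.0322 CPM in replicate 8), IGHV4-28 (0.0669 CPM in replicate 7), SERPINA9 (0.268 CPM in replicate 7) and IGHG1 (1.07 CPM in replicate 7).

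For 20 named genes the line difference in the controls differed from that in the POU2AF1 knockdown libraries by a test of the interaction in edgeR. The signed log2 difference (OCI-Ly7 minus SUDHL4) was higher in the controls by 13.2 for IGLC1, 4.99 for FCRL5, 4.75 for SAMD9L, 3.80 for MX2, 3.67 for PTPN6, 3.56 for TLR7 and 3.42 for TLR4. It was higher by 3.21 for SLAMF1, 2.53 for HLA-DQB1, 2.51 for PRKCB, 2.18 for CD53 and 1.997 for CD180. Smaller values were 1.85 for IFIH1, 1.71 for PAX5, 1.62 for CSF2RB and 1.36 for LCK. It was lower in the controls for IGHV1-69D (-2.76), MYC (-1.65), EXO1 (-1.12) and MCM2 (-0.87). For IGHV1-69D it was also lower than in the POU2F2 knockdown libraries (-2.66). The adjusted p-values ran from 0.000202 (TLR7) to 0.0458 (MX2). The IGLC1 value depends on a group at 0 reads and is no fold. These interactions were not fitted without the OCI-Ly7 POU2AF1 knockdown library that was high in mitochondrially encoded reads.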

How the results depend on the processing

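The line difference in controls, 4448 called genes, was 8123 with all 26 files as separate libraries and 8415 with the series mark as a block. It was 2954 in a fit of the control libraries alone, 1248 in that fit with batch (2 residual degrees of freedom, 1230 of these genes among the 4448) and 1937 when tested against a 2-fold change. Leaving out 1 library or file at a time gave 3025 to 4789 genes. The line difference in POU2AF1 knockdown libraries gave 10085 genes with the series block and 2639 against a 2-fold change, in place of 6290. The line difference in POU2F2 knockdown libraries gave 8893 with the series block, 8184 without a batch term and 2014 against a 2-fold change, in place of 5302. In none of the alternatives to the control contrast was one of the 4448 genes called in the opposite direction. The log2 difference of POU2F2, which was not called, turned to -0.26 in the controls alone, -0.26 without a batch term and -0.29 in limma. That of POU2AF1 turned to 0.0188 in batch 1 alone, 0.0413 in the controls alone, 0.00428 there with batch, and 0.0387 without a batch term. It ran from -1.32 to -0.51 when 1 library was left out, and was called only without the batch 1 OCI-Ly7 library. Of 187 named genes, 73 lost their call in the controls with batch, 59 against a 2-fold change, 29 in the controls alone, 26 without the batch 1 OCI-Ly7 library, 19 in limma, 16 without a filter, 11 without a batch term, 8 in batch 1 alone and 1 in DESeq2, and none turned its direction. No paired analysis was possible, because the labels give no pairing between libraries of the lines and SUDHL4 has 1 control library after the merging. Depth limits genes with few reads, such as DCN and CMPK2.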

Other observations

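Some genes were expressed in 1 line and near absent in the other over all 22 libraries, knockdowns included, by a rule set after the data were seen (at least 5 CPM in every library of 1 line and under 0.5 CPM in every library of the other). In this way 77 of 8841 genes expressed in all 18 OCI-Ly7 libraries (0.871%) were off in all 4 SUDHL4 libraries, TNFRSF1A, TNFRSF21 and ZAP70 among them. In the other direction 119 of 9287 genes expressed in SUDHL4 (1.28%) were off in OCI-Ly7, and BANK1, CD151, FADS1, LMO2 and SERPINA9 were among these. The rule reads levels of the same contrast, so these counts are a description.

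By transcript, 6826 genes reached 10 TPM in every control library. In 5227 of them the 4 OCI-Ly7 libraries shared their leading transcript, and in 202 of these (3.87%) SUDHL4 led with another. In 8 genes the leading transcripts held over 50% of the gene in both lines. MED29, a Mediator subunit, was one: MED29-201 took 86.3%, 91.5%, 74.99% and 84.8% of the gene's TPM in OCI-Ly7 and 0% in SUDHL4, where MED29-207 took 85.2%. RNF144B, a ubiquitin ligase, was another, with RNF144B-201 at 100% in all 4 OCI-Ly7 libraries and 41.5% in SUDHL4. These 2 genes were chosen after their values were seen, and the deposited tables give no error for a transcript's share.

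Of 13389 protein-coding genes 27.4% were called, with 1595 higher and 2073 lower in OCI-Ly7. Of 1245 lincRNA genes 15.1% were called, with 129 higher and 59 lower, and of 1431 antisense genes 13.9%, with 132 higher and 67 lower. Reads of an antisense gene and of its partner cannot be told apart where the strand setting is not known.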
